A study of Mus musculus with 9 samples.

Results

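The genes described here present peptides on major histocompatibility complex (MHC) class I or cut those peptides. There are 10 of them, chosen by name: the class I chains H2-K1, H2-D1 and B2m, the peptide transport and loading genes Tap1, Tap2 and Tapbp, the immunoproteasome subunits Psmb8, Psmb9 and Psmb10, and the class I transactivator Nlrc5. All 10 were found by gene name among 37316 genes on the array, and all 10 are among the 29410 genes tested. They were read in mature megakaryocytes (mMKs) enriched from mouse bone marrow with CD41 and then CD42d, on 9 one-colour Agilent arrays.

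Ctrl is 3 arrays from sham-irradiated male mice. The 1 dpi and 3 dpi groups are 3 arrays each from male mice taken 1 or 3 days after a single total-body dose of 5 Gy of 60Co γ-rays. The labels name no strain, genotype or age. The study's methods describe wild-type C57BL/6 mice in control and irradiated groups, beside other lines. Their microarray section names no strain and describes another maker's chip. Which mice gave these arrays is not stated there. The legend of the study's microarray panel gives an n of 3, which its methods use for mice in a group, but whether each array holds RNA of 1 mouse is not stated. Ctrl replicate 1 was hybridized on 1 slide and the other 8 arrays on a second slide. On that array 69.1% of spots were well above background, against 79.5% and 80.8% on the other Ctrl arrays, so several values are given without it as well. The 1 dpi arrays stand apart too, with 72.3%, 74.8% and 75.6% of spots well above background and the lowest 75th percentiles of log2 intensity, 9.33, 9.45 and 9.43, against 10.03, 10.62 and 10.66 in Ctrl and 10.37, 10.55 and 10.53 at 3 dpi. What part this has in the 1 dpi values below was not tested.

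MHC class I molecules show short peptides from inside a cell to CD8 T cells. The peptides are cut by the proteasome, carried into the endoplasmic reticulum by the Tap1 and Tap2 transporter, and loaded with the help of tapasin, the product of Tapbp, onto a heavy chain paired with B2m. Interferons are known inducers of these genes, and megakaryocytes carry class I molecules that pass on to platelets.

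Each value below is the log2 intensity of the probe that stands for a gene, less that array's 75th percentile, so 0 is the level that 75% of spots do not exceed. A gene is called when limma gives a Benjamini-Hochberg adjusted p under 0.05 over all genes tested and the change is at least 2-fold. Counts by unadjusted p are given without their share of all genes, which is at least as large as that by adjusted p. By adjusted p alone 34.8% of all genes were higher and 21.1% lower at 1 dpi, and 16.9% and 15.1% at 3 dpi. From 1 to 3 dpi these shares were 19.8% and 24.9%. So a count by unadjusted p alone does not set the members or a list apart. All 10 members were above background on all 9 arrays. In each of the 10 members the mean was highest at 1 dpi. The groups next to each other in that order did not always separate, as told gene by gene below.

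At 1 dpi against Ctrl, Nlrc5 and Tap1 rose. Those 2 of 10 members were called higher, beside 12.3% of all genes tested, and 0 were called lower in limma, beside 2.87%. With no minimum fold change 8 members were higher, beside 34.8% of all genes, and 0 were lower, beside 21.1%; 8 members had an unadjusted p under 0.05, each of them higher. Arrays of the groups did not overlap for 8 members, beside 67.5% of all genes. The median log2 fold change of the members was 0.72 and that of all genes tested was 0.25. The 8 that were higher by adjusted p became 5 with median scaling, namely H2-K1, H2-D1, Tap1, Psmb10 and Nlrc5. They became 6 with quantile normalization, with or without normexp, namely H2-D1, Tap1, Tapbp, Psmb9, Psmb10 and Nlrc5.

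The median of all genes moves with the scaling, which matters for the size of these values. With the 75th percentile, 81.1% of the genes called at 1 dpi were higher, with scaling to the median of each array 48.8%, and with quantile normalization 56.3%. Relative to the median of all genes, 8 of 10 members were above 0 at 1 dpi, 7 of them by adjusted p, Tap2 was lower by adjusted p, and none passed 2-fold, with Nlrc5 at 0.92 and Tap1 at 0.89. Scaled to the median of each array they stood at 0.85 and 0.82, also short of the call.

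At 3 dpi against Ctrl, no member was called by limma in either direction, beside 6.98% of all genes higher and 1.82% lower. An unadjusted p under 0.05 was reached by 2 members, and a two-group t-test with its unadjusted p and the same fold threshold called 0. With no minimum fold change, H2-D1 was higher, beside 16.9% of all genes, and Tap2 was lower, beside 15.1%. With median scaling 0 members were higher by adjusted p in limma, and with quantile normalization Psmb8 and Psmb9 were lower beside Tap2. Groups did not overlap for 3 members, beside 47.0% of all genes. The median log2 fold change was 0.02 for the members and 0.11 for all genes.

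From 1 to 3 dpi, 1 of 10 members, Nlrc5, was called lower, beside 4.82% of all genes, and 0 were called higher in limma, beside 3.97%. With no minimum fold change 10 of 10 were lower, beside 24.9%, and 0 were higher, beside 19.8%; 10 had an unadjusted p under 0.05, each of them lower. All 10 had groups that did not overlap, beside 65.5% of all genes. The members' median was -0.60 and that of all genes was -0.11. The 10 that were lower by adjusted p became 4 with median scaling and 6 with quantile normalization, where B2m was higher. The 3 comparisons share arrays, so their values stand side by side and are not independent of each other. Since RNA was taken from whole cell preparations, fewer cells of a type and less RNA per cell cannot be told apart.

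**Figure D1:**
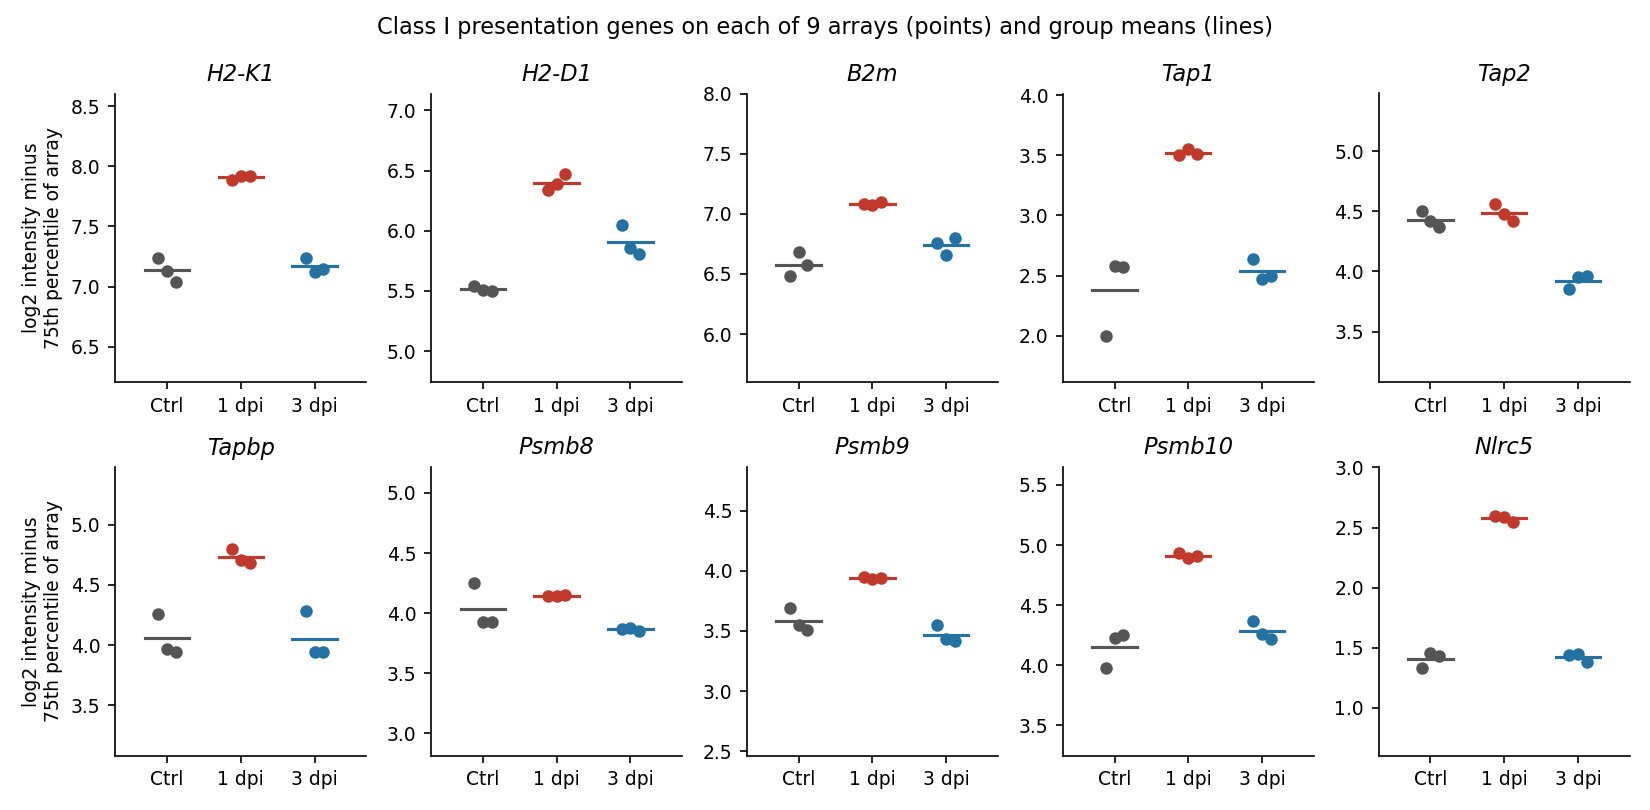
The 10 class I presentation genes on each of the 9 arrays. Each point is 1 array and each line is the mean of 3 arrays; the axis gives log2 intensity less the array's 75th percentile, and the panels span equal widths. In each panel the mean is highest at 1 dpi, yet the 1 dpi and Ctrl arrays overlap for Tap2 and Psmb8, and under median scaling, quantile normalization and the deposited table these 2 genes turn lower at 1 dpi than in Ctrl. B2m also turns lower at 1 dpi under quantile normalization, and Psmb9 in the deposited table.

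H2-K1 and H2-D1 encode heavy chains of classical class I molecules. Since both were higher at 1 dpi on the 75th percentile scale, the stretch of promoter that holds their motif matches is shown, and that of B2m beside it. The sequences are from the RefSeq promoter table, build GRCm38.p6, at chr17:34000369-34000478 on the minus strand for H2-K1, chr17:35262903-35263012 on the plus strand for H2-D1 and chr2:122147520-122147649 on the plus strand for B2m. They begin 131, 191 and 167 bases before the start site. Capitals mark matches to the motifs described below, on either strand.
H2-K1 promoter: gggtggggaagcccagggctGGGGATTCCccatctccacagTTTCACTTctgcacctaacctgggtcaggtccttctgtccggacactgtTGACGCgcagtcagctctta
H2-D1 promoter: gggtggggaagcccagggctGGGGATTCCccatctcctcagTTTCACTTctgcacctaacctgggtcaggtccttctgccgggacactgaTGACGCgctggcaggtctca
B2m promoter: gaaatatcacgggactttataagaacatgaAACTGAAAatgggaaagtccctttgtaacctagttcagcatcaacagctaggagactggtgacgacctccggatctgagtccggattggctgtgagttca
The H2-K1 and H2-D1 stretches are 110 bases long and the same at 102 positions, or 92.7%.

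The motifs searched were AANNGAAA, the core bound by interferon regulatory factors, TTCNNNGAA, the gamma-activated site, GGGGATTCC, the kappa B element of enhancer A, and TGACGC, the core of the X2 box. Both strands of the 250 bases before each start site were searched, and a window counted once for each motif. Of 32851 promoter windows 21.3% hold AANNGAAA, 7.02% hold TTCNNNGAA, 0.213% hold GGGGATTCC and 6.12% hold TGACGC. Of the members, 8 have a window in the table, all but Tap2 and Nlrc5, and H2-K1 has 2 start sites, which makes 9 windows. H2-K1 and H2-D1 each hold GGGGATTCC, TGACGC and, on the opposite strand, AANNGAAA. B2m holds AANNGAAA alone, and Psmb8 holds TTCNNNGAA. AANNGAAA and TTCNNNGAA can share letters, and each was counted by itself; no matches overlap in the members' windows. A match describes letters in a window and is neither a shown binding site nor a cause.

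H2-K1 read 7.24, 7.13 and 7.04 in Ctrl, 7.89, 7.92 and 7.92 at 1 dpi and 7.24, 7.12 and 7.15 at 3 dpi. All 3 arrays of 1 dpi lie above the other 6, and the Ctrl and 3 dpi arrays overlap. The log2 fold change at 1 dpi was 0.77 (SE 0.07; adjusted p = 9.2e-05), or 0.52 relative to the median of all genes. It shrank to 0.06 (adjusted p = 0.53) with quantile normalization and to 0.04 (adjusted p = 0.66) with normexp and quantile, so on those scales H2-K1 was not higher by adjusted p. At 3 dpi it was 0.03 (adjusted p = 0.74), which turned to -0.08 relative to the median of all genes and -0.09 with median scaling. From 1 to 3 dpi the value was -0.74 (adjusted p = 1.8e-04), which shrank to -0.04 (adjusted p = 0.73) with quantile normalization and to -0.03 (adjusted p = 0.75) with normexp and quantile.

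H2-D1 read 5.54, 5.51 and 5.50 in Ctrl, 6.34, 6.39 and 6.47 at 1 dpi and 6.05, 5.86 and 5.81 at 3 dpi. Here the 3 groups stand apart from each other, with 3 dpi in the middle. H2-D1 was higher by 0.89 at 1 dpi (SE 0.08; adjusted p = 7.3e-05), or 0.64 relative to the median of all genes. It was higher by 0.39 at 3 dpi (SE 0.08; adjusted p = 0.0057), or 0.28 relative to that median, and the value from 1 to 3 dpi was -0.49 (adjusted p = 0.0016). With median scaling the value at 3 dpi was 0.27 (adjusted p = 0.19) and did not pass, and with quantile normalization the value from 1 to 3 dpi was -0.14 (adjusted p = 0.16).

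B2m, the light chain that every class I heavy chain needs, read 6.48, 6.68 and 6.57 in Ctrl, 7.08, 7.07 and 7.10 at 1 dpi and 6.76, 6.66 and 6.80 at 3 dpi. The top 3 readings are those of 1 dpi, and 1 of 3 arrays at 3 dpi falls among those of Ctrl. At 1 dpi B2m was higher by 0.51 (SE 0.07; adjusted p = 7.9e-04), or 0.26 relative to the median of all genes, but it turned to -0.07 with quantile normalization and to -0.11 with normexp and quantile. The value at 3 dpi was 0.16 (adjusted p = 0.13), which turned to -0.41 with the mean of both probes and to -0.99 in the deposited table. From 1 to 3 dpi it was -0.34 (adjusted p = 0.0064), which turned to 0.23 with quantile normalization and to 0.24 with normexp and quantile.

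The turn of B2m with the choice of probe comes from a second probe, at chr2:121974599-121974658 on the plus strand of mm9. On it B2m read 2.07, 2.10 and 2.17 in Ctrl, 2.43, 2.52 and 2.49 at 1 dpi and 1.03, 1.19 and 1.19 at 3 dpi. The 3 dpi arrays are the lowest and the groups do not overlap. Its log2 fold changes were 0.37 at 1 dpi (adjusted p = 0.0032), -0.98 at 3 dpi (adjusted p = 3.1e-05) and -1.34 from 1 to 3 dpi (adjusted p = 1.7e-05), the last of which is called. The probe that stands for B2m lies at chr2:121978401-121978460 on the same strand. Which transcripts each of the 2 probes reads was not tested.

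H2-K1 also has a second probe, which shares a run of 29 bases with a probe for the related heavy chain gene H2-L and a run of the same length with a probe for H2-T23. The H2-K1 and H2-L probes are shown because a read on either may include the other transcript. They come from the array files, which give mm9 positions: chr17:34133984-34134043 on the minus strand for H2-K1 and chr17:35403191-35403250 on the plus strand for H2-L. Capitals mark the shared run.
H2-K1 probe: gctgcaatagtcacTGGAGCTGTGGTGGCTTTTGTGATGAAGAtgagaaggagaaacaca
H2-L probe: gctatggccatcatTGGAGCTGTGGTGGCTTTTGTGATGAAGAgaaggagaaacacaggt
On this probe H2-K1 read 4.56, 4.66 and 4.55 in Ctrl, 5.25, 5.37 and 5.39 at 1 dpi and 4.97, 4.81 and 4.82 at 3 dpi. The 3 groups stand apart on it, unlike on the probe that stands for the gene. Its log2 fold changes were 0.74 at 1 dpi (adjusted p = 1.4e-04), 0.27 at 3 dpi (adjusted p = 0.025) and -0.47 from 1 to 3 dpi (adjusted p = 0.0017). The 2 probes of H2-L gave 0.83 and 0.74 at 1 dpi and 0.31 and 0.44 at 3 dpi.

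**Figure D2:**
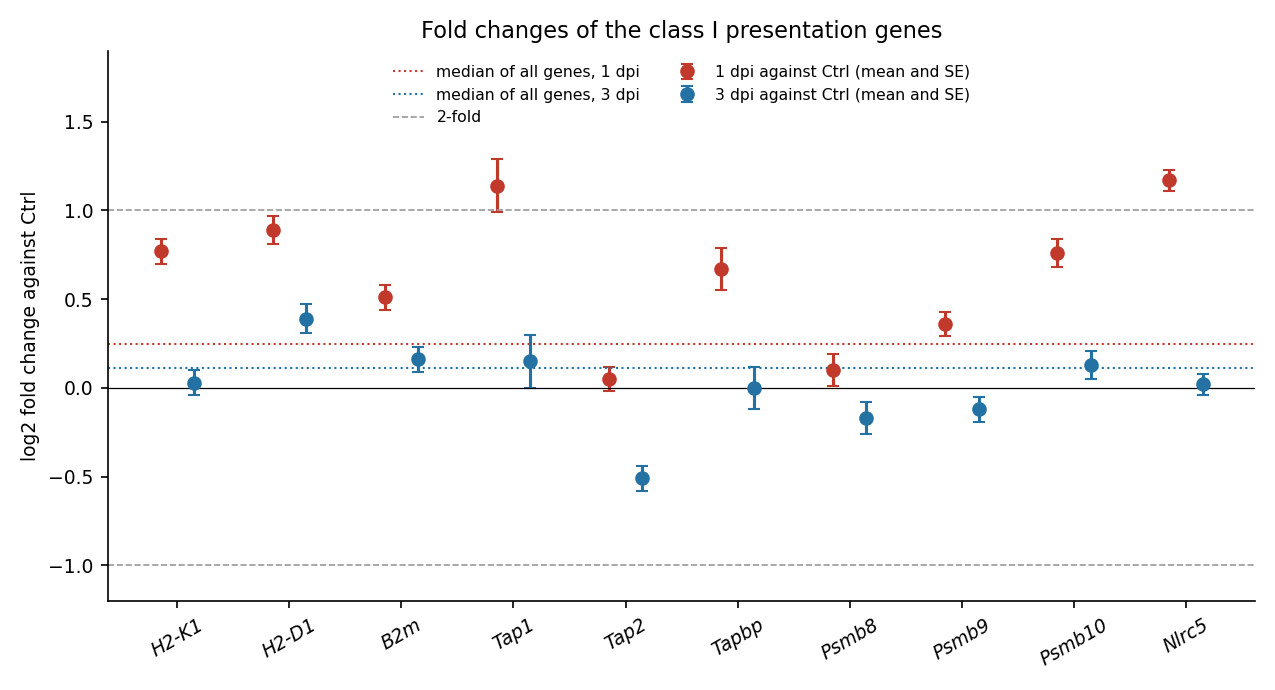
Log2 fold changes against Ctrl of the 10 members at 1 and 3 dpi, with standard errors. Values are on the 75th percentile scale, and lines mark the median of all genes in each comparison, 0.25 at 1 dpi and 0.11 at 3 dpi. Nlrc5 and Tap1 are the 2 members past 2-fold at 1 dpi, and neither passes it relative to the median of all genes or under median scaling. Tap2 and Psmb8 lie above 0 at 1 dpi on this scale, but turn below it relative to the median of all genes and under median scaling, quantile normalization and the deposited table.

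Tap1 and Tap2 encode the paired chains of the peptide transporter of the endoplasmic reticulum. Tap1 and Psmb9 lie head to head, with 225 bases between their start sites, and both were higher at 1 dpi by adjusted p on the 75th percentile scale, so that whole stretch is shown. It is the RefSeq sequence of GRCm38.p6 at chr17:34187331-34187555, printed on the plus strand, which is the strand of Tap1; Psmb9 reads the other way.
Psmb9 and Tap1 shared promoter: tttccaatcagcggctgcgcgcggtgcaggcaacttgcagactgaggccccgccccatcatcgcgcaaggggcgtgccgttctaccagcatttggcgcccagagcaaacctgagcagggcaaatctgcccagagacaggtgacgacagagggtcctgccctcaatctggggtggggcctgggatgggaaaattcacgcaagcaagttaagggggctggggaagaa
It has 61.3% G or C and holds 0 matches to the 4 motifs, so it has no capitals. This says only that those letters are not in this stretch.

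Tap1 read 2.0, 2.58 and 2.57 in Ctrl, 3.50, 3.55 and 3.51 at 1 dpi and 2.64, 2.47 and 2.50 at 3 dpi. The 1 dpi arrays lie within 0.05 of each other and above all others, while Ctrl replicate 1 is the lowest array of the 9. Tap1 rose by 1.14 at 1 dpi, or 2.198-fold (SE 0.15; adjusted p = 6.2e-04). Without Ctrl replicate 1 the value was 0.94 (adjusted p = 5.4e-05), which is under 2-fold and not called. At 3 dpi it was 0.15 (adjusted p = 0.48), and -0.04 without Ctrl replicate 1. From 1 to 3 dpi it was -0.98 (adjusted p = 0.0017), and without 3 dpi replicate 1 it was -1.03 (adjusted p = 0.0047), which is called.

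A second Tap1 probe was called at 1 dpi as well and is shown for that reason. It lies at chr17:34330854-34330913 on the plus strand of mm9 and has no capitals.
Tap1 probe: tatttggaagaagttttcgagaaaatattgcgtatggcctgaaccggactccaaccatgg
On it Tap1 read -0.93, -1.23 and -1.25 in Ctrl, 0.33, 0.43 and 0.46 at 1 dpi and -0.93, -1.0 and -0.86 at 3 dpi. Again 1 dpi is far above the rest, and Ctrl and 3 dpi overlap. Tap1 rose by 1.55 on this probe at 1 dpi (adjusted p = 1.7e-05) and fell by 1.34 from 1 to 3 dpi (adjusted p = 6.6e-05). The value at 3 dpi against Ctrl was 0.21 (adjusted p = 0.15).

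Tap2 read 4.50, 4.42 and 4.37 in Ctrl, 4.56, 4.48 and 4.42 at 1 dpi and 3.85, 3.95 and 3.96 at 3 dpi. Ctrl and 1 dpi overlap, and all 3 arrays of 3 dpi lie below them. The log2 fold change at 1 dpi was 0.05 (adjusted p = 0.52), which turned to -0.20 relative to the median of all genes, -0.26 with median scaling, -0.16 with quantile normalization and -0.14 with normexp and quantile. At 3 dpi it was -0.51 (SE 0.07; adjusted p = 9.0e-04), or -0.62 relative to the median of all genes, and from 1 to 3 dpi it was -0.56 (adjusted p = 5.3e-04). Of all genes tested, 8% had a value at 3 dpi at or below that of Tap2. Its other probe gave 0.20 (adjusted p = 0.44), -0.30 (adjusted p = 0.31) and -0.50 (adjusted p = 0.086) in the same order of comparisons. In the deposited table Tap2 had -0.54 at 3 dpi (adjusted p = 0.055) and -0.27 from 1 to 3 dpi (adjusted p = 0.27). So Tap2 was not lower by adjusted p on that probe or in that table. The table holds the same probe for Tap2, so the 2 are not separate readings. That probe is much dimmer than the probe that stands for Tap2, with a Ctrl mean of -4.8 against 4.43. Its SE was 0.21 against 0.07.

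Tapbp encodes tapasin, which holds empty class I molecules next to the transporter. It read 4.26, 3.97 and 3.94 in Ctrl, 4.80, 4.71 and 4.68 at 1 dpi and 4.28, 3.94 and 3.94 at 3 dpi. The 1 dpi arrays are the highest and the other groups overlap. Tapbp was higher by 0.67 at 1 dpi (SE 0.12; adjusted p = 0.0028), or 0.43 relative to the median of all genes and 0.36 (adjusted p = 0.13) with median scaling, and its value from 1 to 3 dpi was -0.68 (adjusted p = 0.0036). At 3 dpi against Ctrl it was 0.00 (adjusted p = 0.99). On the second probe of Tapbp the values were 0.54, -0.05 and -0.59.

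The immunoproteasome subunits Psmb8, Psmb9 and Psmb10 take the place of the standard catalytic subunits Psmb5, Psmb6 and Psmb7, which changes the peptides that the proteasome cuts. Psmb8 read 4.25, 3.93 and 3.93 in Ctrl, 4.14, 4.14 and 4.15 at 1 dpi and 3.87, 3.88 and 3.85 at 3 dpi. Ctrl replicate 1 is above the 1 dpi arrays and the other Ctrl arrays are below them, while 3 dpi is the lowest group and overlaps neither. At 1 dpi the value was 0.10 (SE 0.09; adjusted p = 0.34), which turned to -0.14 relative to the median of all genes, -0.21 with median scaling, -0.08 with quantile normalization and -0.09 with normexp and quantile. Without Ctrl replicate 1 it was 0.21 (adjusted p = 0.007). The value at 3 dpi was -0.17 (adjusted p = 0.21), or -0.06 without Ctrl replicate 1, and from 1 to 3 dpi it was -0.27 (adjusted p = 0.042).

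Psmb9 read 3.69, 3.55 and 3.51 in Ctrl, 3.95, 3.93 and 3.94 at 1 dpi and 3.55, 3.43 and 3.42 at 3 dpi. All 1 dpi arrays are above the others, and Ctrl and 3 dpi overlap. It was higher by 0.36 at 1 dpi (SE 0.07; adjusted p = 0.0037), or 0.11 relative to the median of all genes, with 0.04 (adjusted p = 0.83) under median scaling, and turned to -0.24 in the deposited table. At 3 dpi the value was -0.12 (adjusted p = 0.25), or -0.06 without Ctrl replicate 1, and from 1 to 3 dpi -0.47 (adjusted p = 0.0013). On the other Psmb9 probe the values were 0.23 (adjusted p = 0.36), -0.48 (adjusted p = 0.11) and -0.71 (adjusted p = 0.023). That probe is much dimmer, with a Ctrl mean of -4.84 against 3.58, and its SE was 0.20 against 0.07.

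Psmb10 read 3.98, 4.23 and 4.25 in Ctrl, 4.93, 4.89 and 4.91 at 1 dpi and 4.37, 4.26 and 4.22 at 3 dpi. All 3 readings at 1 dpi are well above the others, and Ctrl and 3 dpi overlap. Psmb10 was higher by 0.76 at 1 dpi (SE 0.08; adjusted p = 2.4e-04), or 0.51 relative to the median of all genes. At 3 dpi the value was 0.13 (adjusted p = 0.28), or 0.05 without Ctrl replicate 1, and from 1 to 3 dpi it was -0.63 (adjusted p = 8.6e-04).

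Of the standard subunits, Psmb5 was higher by 0.37 at 1 dpi (adjusted p = 0.0054) and by 0.47 at 3 dpi (adjusted p = 0.0028). Psmb6 was higher by 0.41 at 1 dpi (adjusted p = 0.0014) and by 0.30 at 3 dpi (adjusted p = 0.010). With median scaling Psmb5 had 0.06 (adjusted p = 0.77) and 0.35 (adjusted p = 0.13), and Psmb6 had 0.10 (adjusted p = 0.53) and 0.17 (adjusted p = 0.34), so neither was higher by adjusted p on that scale. Psmb6 at 1 dpi was 0.12 (adjusted p = 0.11) with quantile normalization, and its second probe gave 0.25 (adjusted p = 0.09). Psmb7 had -0.06 and 0.16, and its value at 1 dpi turned to 0.02 without Ctrl replicate 1. In limma 0 of these 3 genes were called at 1 dpi, where 2 had an unadjusted p under 0.05, and 0 at 3 dpi, where 2 did; the t-test called 0 at each day.

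A difference between an immunoproteasome subunit and its standard counterpart within an array does not move with the scaling of that array, so its change between groups is given here. For Psmb8 minus Psmb5 it was 1.51, 1.36 and 1.39 in Ctrl, 1.1, 1.19 and 1.16 at 1 dpi and 0.68, 0.82 and 0.84 at 3 dpi. The 3 groups do not overlap and step down from Ctrl to 3 dpi. The change was -0.27 at 1 dpi (SE 0.05), -0.64 at 3 dpi (SE 0.07) and -0.37 from 1 to 3 dpi (SE 0.06).

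For Psmb9 minus Psmb6 the difference was -1.11, -1.26 and -1.32 in Ctrl, -1.30, -1.29 and -1.27 at 1 dpi and -1.68, -1.63 and -1.62 at 3 dpi. Ctrl and 1 dpi overlap, and 3 dpi lies below them. The change was -0.06 at 1 dpi (SE 0.06), -0.41 at 3 dpi (SE 0.06) and -0.36 from 1 to 3 dpi (SE 0.02). With the mean of all probes, which takes in the dimmer probe of Psmb9, the last pair of values was -0.57 and -0.53.

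For Psmb10 minus Psmb7 the difference was 1.36, 1.84 and 1.86 in Ctrl, 2.58, 2.55 and 2.40 at 1 dpi and 1.92, 1.55 and 1.51 at 3 dpi. The 1 dpi arrays stand above the rest, and Ctrl and 3 dpi overlap. The change was 0.82 at 1 dpi (SE 0.18), -0.03 at 3 dpi (SE 0.21) and -0.85 from 1 to 3 dpi (SE 0.14). Thus the 1 dpi arrays lay above those of Ctrl for Psmb10, below them for Psmb8 and among them for Psmb9. Of the 9 comparisons of such differences, each one without overlap has an exact permutation p of 0.1, the smallest that 3 against 3 arrays can give, and an adjusted p of 0.13, so none passed.

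**Figure D3:**
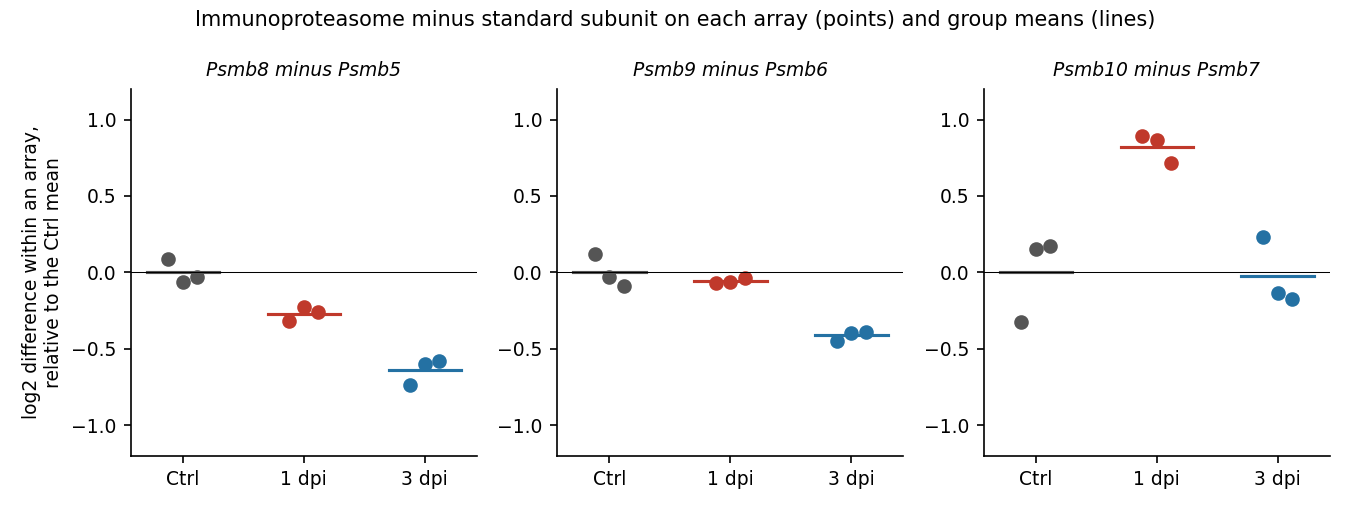
Immunoproteasome subunit minus standard subunit within each array, set to 0 at the mean of Ctrl. Each point is 1 array and each line is the mean of 3. The points of Psmb8 minus Psmb5 lie below those of Ctrl at each day, those of Psmb9 minus Psmb6 lie below at 3 dpi, and those of Psmb10 minus Psmb7 lie above at 1 dpi and overlap with Ctrl at 3 dpi. None of these comparisons passed the permutation test, where 3 against 3 arrays cannot give a p under 0.1 and the adjusted p was 0.13 in each without overlap. Such a difference does not move with a scaling that shifts a whole array, and it does not tell which of the 2 subunits changed.

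Nlrc5 encodes a nuclear protein that is known to switch on class I heavy chain genes and B2m. It read 1.33, 1.46 and 1.43 in Ctrl, 2.60, 2.59 and 2.55 at 1 dpi and 1.44, 1.45 and 1.38 at 3 dpi. All 1 dpi arrays lie more than 1 log2 unit above each of the other 6, and Ctrl and 3 dpi overlap. Nlrc5 rose by 1.17 at 1 dpi, or 2.249-fold (SE 0.06; adjusted p = 5.5e-06), and fell by 1.15 from 1 to 3 dpi, or 2.225-fold (adjusted p = 1.5e-05). Of all genes tested, 90.2% had a value at or below that of Nlrc5 at 1 dpi, and 3.4% from 1 to 3 dpi. At 3 dpi against Ctrl the value was 0.02 (adjusted p = 0.85), and -0.10 relative to the median of all genes. The fall from 1 to 3 dpi was -1.04 relative to the median of all genes, still called, and -0.96 with median scaling, not called.

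A second Nlrc5 probe was called at 1 dpi too and is shown because its 60 bases span 147 bases of the chromosome, as a probe across a splice junction does. It lies at chr8:97030478-97030624 on the plus strand of mm9 and has no capitals.
Nlrc5 probe: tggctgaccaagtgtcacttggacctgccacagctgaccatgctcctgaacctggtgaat
On it Nlrc5 read -3.99, -3.75 and -3.75 in Ctrl, -2.59, -2.88 and -2.69 at 1 dpi and -3.69, -3.85 and -3.59 at 3 dpi. The 1 dpi arrays are the highest here as well, and Ctrl and 3 dpi overlap. Nlrc5 rose by 1.11 on this probe at 1 dpi (adjusted p = 1.5e-04), with 0.12 at 3 dpi and -0.99 from 1 to 3 dpi.

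In all, the 10 members have 17 probes, 7 members with 2 each and 3 with 1, and all 17 passed the filter. In limma 4 of them were called at 1 dpi, those of Tap1 and Nlrc5, and 0 at 3 dpi, where 4 had an adjusted p under 0.05. From 1 to 3 dpi limma called 3, namely the second probes of B2m and Tap1 and the first of Nlrc5. Among genes, not probes, the same thresholds were met by 12.3% upward and 2.87% downward for 1 dpi. For 3 dpi the gene shares were 6.98% and 1.82%, and between the 2 days 3.97% and 4.82%. A share of all single probes is not given, so the probe counts were not tested against one. Probes of 1 gene pointed the same way in each comparison with the exception of B2m at 3 dpi, though Tapbp and Psmb9 gave values near 0 or unequal in size at that day.

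**Figure D4:**
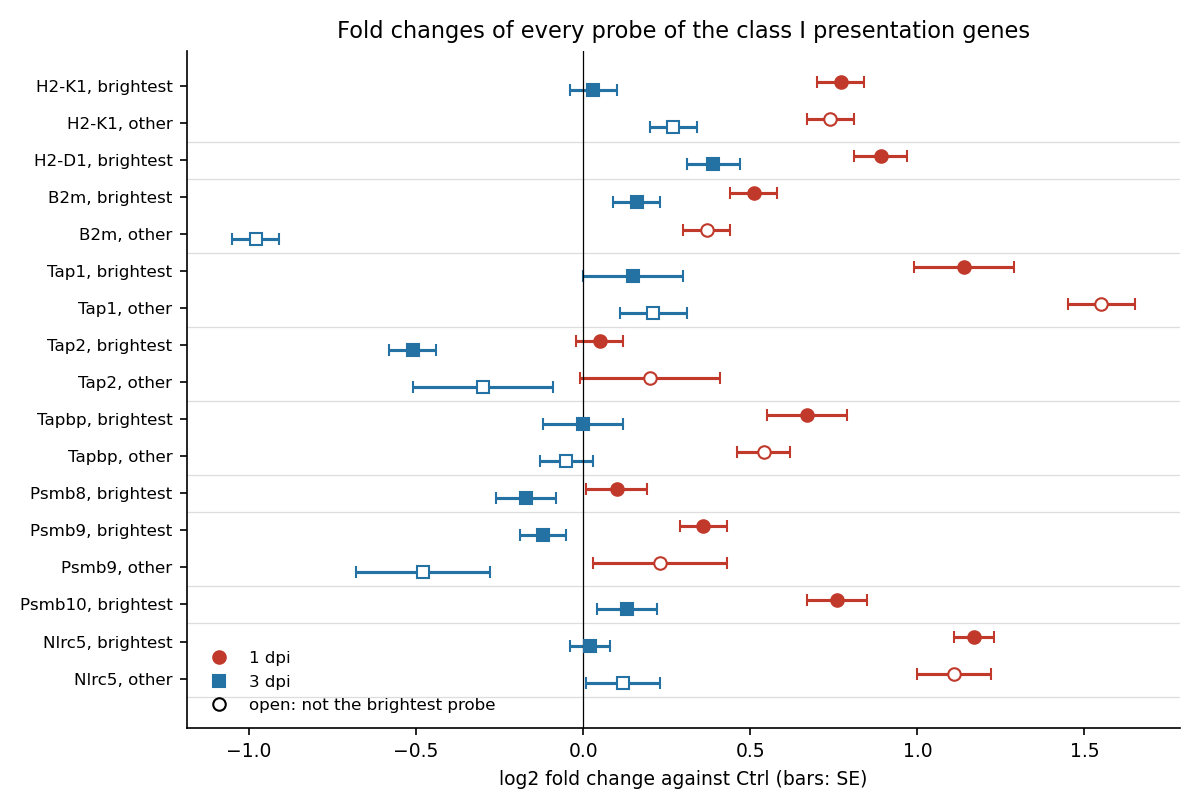
Log2 fold changes against Ctrl on every probe of the 10 members, with standard errors. Filled symbols mark the probe that stands for its gene and open ones the other probe, on the 75th percentile scale. The pair of B2m probes parts at 3 dpi, where 1 gives 0.16 and the other -0.98; the pairs of Tap1 and of Nlrc5 are past 2-fold at 1 dpi on this scale. At 1 dpi Tap2, Psmb8 and B2m turn lower under quantile normalization, and Tap2 and Psmb8 under median scaling as well.

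Other genes of the pathway were described from lists, each by its count of called genes. These counts stand beside the shares of all genes tested. At 1 dpi 12.3% were called higher and 2.87% lower, and at 3 dpi 6.98% and 1.82%. Of the 11 further subunits of the proteasome core, limma called 0 at 1 dpi, where 4 had an unadjusted p under 0.05, and 0 at 3 dpi, where 7 did; the t-test called 0 at each day. Their median was 0.01 at 1 dpi, which turned to -0.31 with median scaling and -0.24 with quantile normalization, and 0.23 at 3 dpi, which was 0.10 with median scaling.

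Of 9 assembly and activator genes 8 were tested, and 1 was called at 1 dpi. That gene was Psme3, a nuclear proteasome activator, which rose by 1.45 (adjusted p = 3.6e-06), had 0.18 at 3 dpi and fell by 1.26 from 1 to 3 dpi (adjusted p = 1.7e-05). Its other probe gave 0.45 at 1 dpi and -0.11 from 1 to 3 dpi, and the mean of its probes 0.95 and -0.69, neither of them called. At 3 dpi limma called 0 of the 8, where 2 had an unadjusted p under 0.05 and the t-test called 0. Of 10 further peptide trimming and loading genes limma called 0 at 1 dpi and 0 at 3 dpi, where 5 had an unadjusted p under 0.05 at each day and the t-test called 0; their medians were 0.07 and 0.09, which turned to -0.24 and -0.03 with median scaling. Calr, the chaperone calreticulin of the loading complex, came close with 0.98 at 1 dpi (adjusted p = 1.4e-04); it was chosen after its value was seen.

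Of 19 class I-like and nonclassical genes, 18 were tested. In limma 0 were called at 1 dpi, where 17 had an unadjusted p under 0.05 and the t-test called 0. By adjusted p alone 14 were higher, beside 34.8% of all genes, and 2 were lower, beside 21.1%. The median of the 18 genes at 1 dpi was 0.56. That median was 0.25 with median scaling and 0.24 in the deposited table, and 1 gene was called lower with median scaling and relative to the median of all genes, while 1 was called higher in the deposited table. At 3 dpi 2 passed as higher and 0 as lower, with a median of 0.21, or 0.09 with median scaling. Fcgrt, the neonatal Fc receptor that recycles antibodies, rose by 2.05 at 3 dpi (adjusted p = 5.9e-07). Hfe, a regulator of iron uptake, rose by 1.16 at 3 dpi (adjusted p = 2.6e-05). These class I-like chains bind B2m but do not show peptides, and at 1 dpi they stood at -0.04 and 0.31, the second of which turned to -0.01 with median scaling and -0.30 in the deposited table.

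Of 22 regulators of class I genes, 7 were called at 1 dpi. Beside 12.3% higher and 2.87% lower of all genes tested, 5 regulators were higher and 2 lower. That balance moved to 3 higher and 5 lower with median scaling and to 4 and 4 relative to the median of all genes. At 3 dpi 1 was called, and it was higher. Irf7, an interferon-induced transcription factor, rose by 2.14 at 1 dpi (adjusted p = 1.5e-06) and by 1.25 at 3 dpi (adjusted p = 1.6e-05). Usp18, which damps the type I interferon receptor, rose by 2.09 at 1 dpi (adjusted p = 5.8e-07). Irf1, which binds the interferon response elements of class I promoters, rose by 1.48 at 1 dpi (adjusted p = 3.5e-06), had -0.11 at 3 dpi and fell by 1.59 from 1 to 3 dpi.

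Ciita, the class II transactivator and a relative of Nlrc5, fell by 1.11 at 1 dpi (adjusted p = 1.7e-05). It was the other way round from Nlrc5 on the probe that stands for it, but its 4 probes ran from -1.11 to 0.57, and their mean gave -0.38, not called. At 3 dpi its value was 0.02. The medians of the 22 regulators were -0.08 at 1 dpi and -0.04 at 3 dpi, or -0.40 and -0.17 with median scaling.

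Of 14 interferons, receptors and kinases, 12 were tested. At 1 dpi 3 of them were called and at 3 dpi 1, each of them higher, beside 12.3% and 6.98% of all genes tested. Ifnb1 was above background on 0 of 3 Ctrl arrays, and on all 3 arrays of each later day. Taken against the lowest level that counts as above background on each Ctrl array, it was at least 6.02-fold higher at 1 dpi and at least 1.33-fold higher at 3 dpi on the 75th percentile scale. With normexp and quantile its log2 fold changes were 0.75 and 0.08, neither of them called and both under those bounds. Ifng rose by 1.30 at 1 dpi (adjusted p = 2.5e-05), with 0.99 under median scaling, and by 2.21 at 3 dpi (adjusted p = 1.7e-06). Ifna1 rose by 1.16 at 1 dpi (adjusted p = 0.0076), but without Ctrl replicate 1 it had 0.84, not called. The medians were 0.36 and 0.34, or 0.05 and 0.21 with median scaling. With median scaling 1 gene of this list was called at 1 dpi, and with normexp and quantile 0 were. So Ifng was highest at 3 dpi, while the members' means were highest at 1 dpi on the 75th percentile scale.

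Across the 9 arrays, each member was set beside the mean of the other 9 after standardizing. The correlation was 0.99 for H2-K1, 0.98 for Nlrc5, 0.96 for Psmb9 and 0.95 for Tapbp, and 0.62 for Psmb8 and 0.51 for Tap2. H2-Q5 (r = 0.998), Isg20 (r = 0.998), Cmpk2 (r = 0.997), LOC102631952 (r = 0.997) and Rprl3 (r = 0.997) are the 5 genes outside the lists with a pattern over 9 arrays most like the members' mean. At 1 dpi H2-Q5 had 1.11, Isg20 1.37, Cmpk2 0.93, LOC102631952 0.47 and Rprl3 1.25, and at 3 dpi each of these 5 lay between -0.07 and -0.04. These correlations describe 9 arrays in 3 groups and are mostly set by the 1 dpi arrays.

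Markers of megakaryocytes and of other marrow cells were read on the same arrays. Sums below are intensities of the tested genes of a list on each array, in units of the 75th percentile of that array. The megakaryocyte list has 15 of 15 genes tested and summed to 140.9, 126.5 and 124.9 in Ctrl, 139.3, 128.5 and 126.5 at 1 dpi and 150.1, 148.5 and 146.7 at 3 dpi, with Pf4 the most abundant. Pf4, a platelet chemokine, had means of 6.02, 6.12 and 6.03, an order that turned with quantile normalization, where its fold change at 1 dpi was -0.34, and Itga2b, which encodes CD41, had 0.33, 1.02 and 0.30. In limma 0 of the 15 were called at 1 dpi and 0 at 3 dpi, where 7 had an unadjusted p under 0.05 at each day and the t-test called 0. By adjusted p alone 3 were higher and 3 lower at 1 dpi, beside 34.8% and 21.1% of all genes. Higher were Itga2b (0.69), Tubb1 (0.48) and Gp9 (0.47), and lower Gp1ba (-0.82), Gp5 (-0.54) and Treml1 (-0.33). The list median at 1 dpi was -0.01, or -0.32 with median scaling. With median scaling or relative to the median of all genes, 1 gene was called lower at 1 dpi. At 3 dpi 1 gene was called lower in the deposited table. All 15 were above background on all 9 arrays, so the markers of the labelled cell type were present in each group.

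The dendritic cell list, 8 of 9 genes tested and Siglech the most abundant, summed to 24.77, 38.63 and 39.57 in Ctrl, 67.09, 63.31 and 61.84 at 1 dpi and 37.96, 35.43 and 34.89 at 3 dpi. Neutrophil genes, 9 of 9 tested with Mpo the most abundant, summed to 1076, 1140 and 1128 in Ctrl, 1871, 1742 and 1712 at 1 dpi and 1188, 1059 and 1121 at 3 dpi. T and NK cell genes, 10 of 11 tested with Nkg7 the most abundant, summed to 30.46, 32.23 and 30.68 in Ctrl, 45.3, 42.11 and 42.45 at 1 dpi and 39.45, 35.86 and 34.85 at 3 dpi. Like the members' means, these 3 sums are highest at 1 dpi on this scale, though the median log2 fold change of the neutrophil list at 1 dpi, 0.48, turned to -0.20 with quantile normalization. The T and NK cell sum is carried by Nkg7, and the median fold change of that list was 0.56 at 1 dpi and 0.70 at 3 dpi, an order that turned with quantile normalization (0.56 and 0.48), so on this scale the list does not follow its sum. The dendritic cell sum is carried by Siglech, and at 1 dpi 2 genes of that list were called higher and 2 lower. The median of the dendritic cell list at 1 dpi, 0.48, turned to -0.43 in the deposited table. The erythroid sum, 9 of 9 tested with Hba-a1 the most abundant, was highest at 1 dpi too, with 138.8, 119.4 and 125.1 in Ctrl, 284.4, 231.8 and 226.7 at 1 dpi and 44.68, 46.3 and 43.23 at 3 dpi. That sum is carried by Hba-a1, and the median fold change of the erythroid list at 1 dpi was -1.28, with 6 of 9 genes called lower. Whether these sums reflect other cells or a change in the enriched cells was not tested, nor was their part in the result for the members.

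The macrophage list, 12 of 12 tested with Csf1r the most abundant, summed to 60.3, 53.92 and 51.82 in Ctrl, 82.76, 77.57 and 81.76 at 1 dpi and 141.5, 138.3 and 135.7 at 3 dpi. Endothelial genes, 8 of 8 tested with Stab2 the most abundant, summed to 2.831, 2.534 and 2.598 in Ctrl, 4.433, 4.071 and 4.254 at 1 dpi and 8.752, 7.28 and 7.563 at 3 dpi. Stromal genes, 8 of 8 tested with Cxcl12 the most abundant, summed to 7.786, 7.275 and 7.512 in Ctrl, 35.37, 31.27 and 33.81 at 1 dpi and 57.9, 54.01 and 57.8 at 3 dpi. These 3 sums are highest at 3 dpi, unlike the members' means. The stromal list does not follow its sum on this scale, with a median fold change of 1.13 at 1 dpi and 0.41 at 3 dpi, an order that turned with normexp and quantile (0.83 and 1.31) and in the deposited table (1.15 and 3.52). B cell genes, 9 of 9 tested with Cd79b the most abundant, summed to 29.62, 27.94 and 28.67 in Ctrl, 5.899, 5.653 and 5.824 at 1 dpi and 5.736, 5.571 and 5.57 at 3 dpi, which is low at both days.

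The counts of marker genes stand beside 12.3% of all genes tested called higher and 2.87% lower at 1 dpi. At 3 dpi these shares were 6.98% and 1.82%. Of the macrophage genes 7 were called at 1 dpi, 1 of them lower, and 9 at 3 dpi, each of them higher. Of the B cell genes 8 were called at each day, each of them lower. In the dendritic cell list 4 were called at 1 dpi, of which 2 were lower, and 2 at 3 dpi, both lower. Of T and NK cell genes 2 were higher at 1 dpi and 4 at 3 dpi, of endothelial genes 3 and 5, and of stromal genes 4 and 3, with 0 lower in each. With median scaling 0 T and NK cell genes were called at 1 dpi in limma, endothelial genes had 1 higher and 1 lower, and 0 neutrophil genes were called. Of neutrophil genes 2 were called at 1 dpi, both higher, and 0 in limma at 3 dpi, where 2 had an unadjusted p under 0.05 and the t-test called 0. Of erythroid genes 7 were called at each day, each of them lower apart from Hba-a1 at 1 dpi, which had 1.34, or 0.70 and not called with quantile normalization.

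Single markers of those cells had these log2 fold changes. Csf1r, the receptor that macrophages need, had 0.40 at 1 dpi and rose by 1.05 at 3 dpi, which was 0.99 without Ctrl replicate 3 and 0.92 with median scaling, neither of them called; Adgre1, which encodes F4/80, had -0.21 and 0.50. Siglech, of plasmacytoid dendritic cells, had 1.08 at 1 dpi (adjusted p = 0.014) on the probe that stands for it. This was called, but without Ctrl replicate 1 it was 0.70, not called, with median scaling 0.77, not called, and in the deposited table it turned to -2.08, called lower; the 3 probes of Siglech ran from -1.61 to 1.08. Itgax, which encodes CD11c, had 0.54 at 1 dpi and 0.14 at 3 dpi, the second of which turned to -0.41 in the deposited table, and 3 of the 8 tested genes of the list were below 0 at 1 dpi. Cd3e, of T cells, had 0.87 and 0.41, the second of which turned to -0.02 in the deposited table, and Nkg7 had 0.44 and 0.11, the second of which turned to -0.02 with median scaling. From day 1 to day 3 Cd3e had -0.45 (adjusted p = 0.085) and Nkg7 -0.33, neither of them called. In the deposited table Cd3e was called at 1 dpi, with 1.07 (adjusted p = 0.0021). There it was also called from 1 to 3 dpi, with -1.09 (adjusted p = 0.0025). The median of the T and NK cell list from 1 to 3 dpi was 0.44, with 3 genes called higher. Mpo had 0.92 and 0.00, the first of which turned to -0.19 in the deposited table, and Ly6g, of mature neutrophils, had -0.03 and -0.64, the first of which turned to 0.03 without Ctrl replicate 1. Cdh5, of endothelium, rose by 1.74 and by 2.40. Of the defining markers, Xcr1, of dendritic cells, did not pass the filter on background in any group.

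**Figure D5:**
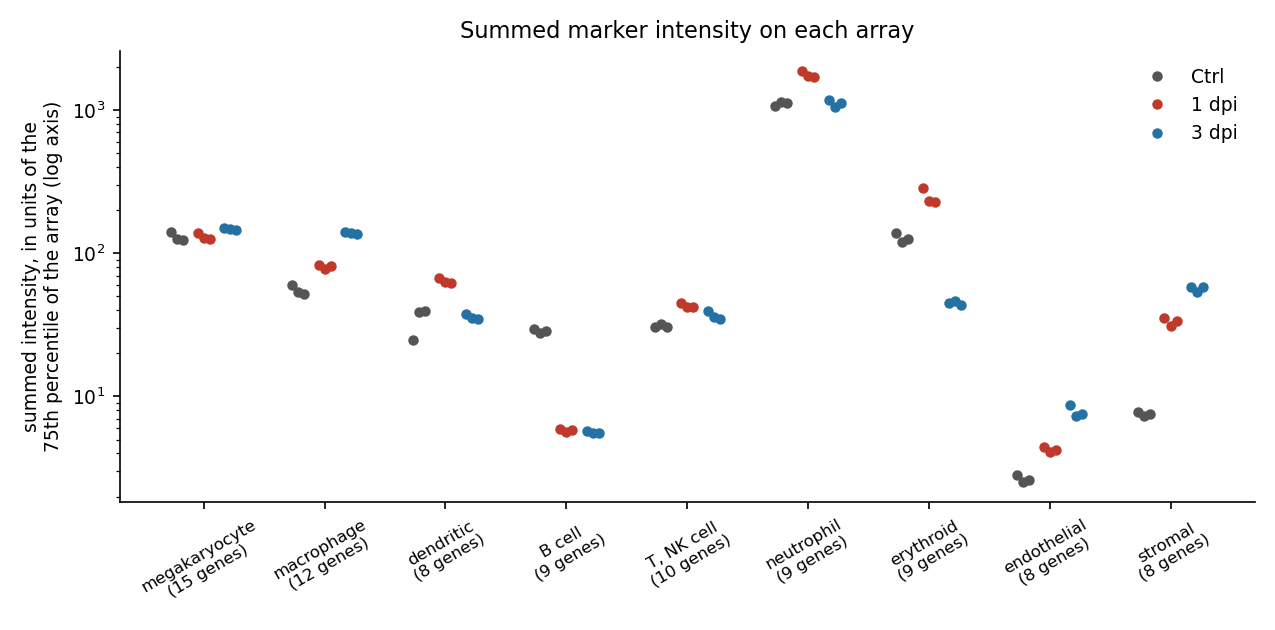
Summed intensity of each marker list on each array, in units of the 75th percentile of that array and on a log axis. Each point is 1 array. The sums of the dendritic cell, neutrophil, T and NK cell and erythroid lists are highest at 1 dpi on this scale, where the median fold change of the neutrophil list turns lower under quantile normalization and that of the dendritic cell list in the deposited table; the T and NK cell sum is carried by Nkg7, and the median fold change of that list is larger at 3 dpi than at 1 dpi, which turns under quantile normalization; the erythroid sum is carried by Hba-a1, and the median of that list is below 0 at 1 dpi. Highest at 3 dpi are the sums of the macrophage, endothelial and stromal lists, though the median of the stromal list is larger at 1 dpi, which turns with normexp and quantile and in the deposited table, and the B cell sum is low at both days. The dendritic cell sum is carried by Siglech, whose change at 1 dpi turns lower in the deposited table. Lists differ in length and probes, so the height of 1 list is not set against that of another.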

How the data were processed

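Agilent one-colour arrays of 3 Ctrl, 3 1 dpi and 3 3 dpi samples were used. The intensity values are background-subtracted spot intensities (gProcessedSignal) that the authors deposited from Agilent Feature Extraction 10.7.1.1, in arbitrary units. The deposited matrix holds log2 values, 1 per gene name, that the authors had normalized; the steps are not given in the sources used here. Of 62976 spots per array 3671 are controls, none is saturated, and the 59305 others carry 56605 probes, of which 20 were dropped as outliers.

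Intensities were converted to log2, the 75th percentile of each array was subtracted, outlier spots were left out and spots of a probe averaged. Probes were named by RefSeq accession where that matched (32984) and otherwise by the name in the file (23601). The probe with the highest mean stood for its gene, and a gene was tested if in some group each of its 3 arrays read well above background. The 3 groups were fitted together with limma 3.58.1 in R 4.3.3 with data.table (version 1.17.8), and p-values were adjusted over all 29410 genes tested. Differences between subunits were compared by an exact permutation test. Figures were drawn with matplotlib 3.10.9 and pandas 2.3.3 in Python 3.11.15, and the steps were tested on simulated data. Promoters came from RefSeq GRCm38.p6 and probe positions from the array files.

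The members and lists were chosen with earlier results of these data known. All 10 members and the 3 standard subunits were named, and from each other list at most 4 called genes with the largest change against Ctrl at each day; Irf1, Ciita, Ifnb1, Ifng and the single cell markers were named whatever their values. A few genes of the lists are not reported here by name. Alternatives were median scaling, quantile normalization, normexp with quantile normalization, a 75th percentile over probes above background, the deposited table, other filters, other probe choices, no minimum fold change, centring on the median gene, other tests, blocks for replicate number and slide, and each array left out in turn.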

Additional observations from a re-analysis of the deposited data

Results flagged for a closer look

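Nlrc5 changed by -1.15 from 1 to 3 dpi (adjusted p = 1.5e-05). It drew attention because its level differed between the 2 days by more than 2-fold on the probe that stands for it and the 75th percentile scale. With median scaling the value was -0.96, not called. The second probes of Tap1 and B2m, each at -1.34, were called between the 2 days as well.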

How the results depend on the processing

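Counts of called members moved with the settings as follows. At 1 dpi, 2 members became 0 with median scaling, 0 relative to the median of all genes, 8 with no minimum fold change and 1 with the slide as a block; leaving out 1 array gave 1 to 2, the 1 being without Ctrl replicate 1. At 3 dpi, 0 became 2 with no minimum fold change, and leaving out 1 array gave 0 to 0. From 1 to 3 dpi, 1 became 0 with median scaling, 2 with the 75th percentile over probes above background, 3 with the deposited table, 2 with the mean of all probes, 10 with no minimum fold change and 3 with every probe as its own feature; leaving out 1 array gave 1 to 2. Of single probes, 4 at 1 dpi became 1 with median scaling or relative to the median of all genes and 13 with no minimum fold change, and leaving out 1 array gave 3 to 4. At 3 dpi, 0 became 1 with median scaling or relative to the median of all genes and 4 with no minimum fold change, and leaving out 1 array gave 0 to 1. From 1 to 3 dpi, 3 became 5 with the percentile over probes above background and 16 with no minimum fold change, and leaving out 1 array gave 3 to 4. With no minimum fold change, 34.8% of all genes were higher and 21.1% lower at 1 dpi. These shares were 16.9% and 15.1% at 3 dpi, and 19.8% and 24.9% from 1 to 3 dpi. Shares of all single probes under these settings are not given here. Psmb9 minus Psmb6 moved to -0.57 at 3 dpi and -0.53 from 1 to 3 dpi with the mean of all probes.

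Among the directions that turned are these. Siglech at 1 dpi, 1.08 and called, turned to -2.08 in the deposited table, also called. Tap2 at 1 dpi turned to -0.26 (median scaling), -0.16 (quantile), -0.14 (normexp and quantile), -0.27 (deposited table) and -0.20 (relative to the median). Psmb8 at 1 dpi turned to -0.21, -0.08, -0.09, -0.08 and -0.14 in the same order. B2m turned to -0.07 (quantile) and -0.11 (normexp and quantile) at 1 dpi, to -0.99 (deposited table) and -0.41 (mean of probes) at 3 dpi, and to 0.23 and 0.24 (quantile, normexp and quantile) from 1 to 3 dpi. Psmb9 at 1 dpi turned to -0.24 in the deposited table. H2-K1 at 3 dpi turned to -0.09 (median scaling) and -0.08 (relative), and ran from -0.02 to 0.09 with 1 array left out, the lowest without Ctrl replicate 3. Nlrc5 at 3 dpi turned to -0.11 (median scaling), -0.10 (relative) and -0.02 (slide as a block), and ran from -0.02 to 0.04, the lowest without Ctrl replicate 1. Tap1 at 3 dpi turned to -0.04 with the slide as a block and ran from -0.04 to 0.25, the lowest without Ctrl replicate 1. Hfe at 1 dpi turned to -0.01 (median scaling) and -0.30 (deposited table). Ciita at 3 dpi turned to -0.10 (median scaling), -0.17 (deposited table), -0.01 (mean of probes) and -0.09 (relative), and ran from -0.02 to 0.09, with -0.02 without Ctrl replicate 2 and -0.01 without Ctrl replicate 3. Psmb6 from 1 to 3 dpi turned to 0.08, 0.09, 0.09 and 0.03 (median scaling, quantile, normexp and quantile, deposited table). Psmb7 at 1 dpi turned to 0.02 with the slide as a block and ran from -0.12 to 0.02, the highest without Ctrl replicate 1. B2m at 3 dpi turned where its second probe, at -0.98, was used or averaged in. The cause of the other turns was not tested.

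With the replicate number as a block, 2, 0 and 1 members were called, so the block changed no member's call. Correlations of arrays that share a number, taken on deviations from the group means, ran from -0.11 to 0.13. Arrays of unlike number were not set beside them, so whether the numbers pair samples was not tested. Column medians of the deposited table were 5.84, 5.84 and 5.83 in Ctrl, 5.80, 5.80 and 5.79 at 1 dpi and 5.86, 5.86 and 5.87 at 3 dpi; for H2-K1, B2m, Tap1, Tap2 and Psmb9 it holds the probe that does not stand for the gene here.

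With 3 arrays a group, a change that was not called is not shown to be absent. The slide is bound up with Ctrl replicate 1, and the 2 cannot be told apart. Markers of other marrow cells moved with the groups; whether this is RNA of such cells, and its part in the results, was not tested. Protein and surface class I were not analysed here.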
